A study of Mus musculus with 4 samples.

Results

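Fuca1, Arsb, Hexa, Gusb, Man2b1, Glb1 and Gaa encode soluble hydrolases that cut sugars or sulfate groups from glycans inside lysosomes. These 7 genes of the 31053 in the files were selected by name. The selection followed measured values of the same libraries, because Fuca1 and Arsb had been seen at a higher level in monocytes of TLR9-/- mice than in those of wildtype (WT) mice. The genotype comparison in monocytes and in the cells beside them (macrophages and granulocyte-monocyte progenitors) is therefore described without a test. The question was whether the same difference was present in the other cell types of the marrow, and in the 5 other hydrolases.

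Single cells of the mononuclear fraction of bone marrow were profiled by sequencing the 5′ end of their transcripts. The cells were flushed from femur and tibia and collected over a Ficoll gradient. Libraries came from 2 TLR9-/- mice, which lack Toll-like receptor 9, the endosomal receptor for unmethylated CpG DNA, and 2 WT mice, all of the C57BL/6 strain, with 1 library per mouse. The paper describes 2 experiments, each with 1 mouse of each genotype. The labels do not say which libraries share an experiment. No treatment is given for these mice, and their age is not given in the sources used here. Values are listed for replicates 1 and 2 in that order, TLR9-/- first, and the files carry unique molecular identifiers (UMIs), so that each captured transcript is counted once.

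Lysosomal hydrolases are made in the endoplasmic reticulum, tagged with mannose 6-phosphate in the Golgi and carried by receptors to the lysosome, where they work in sequence on glycoproteins, glycosaminoglycans and glycolipids. Sulfatases such as arylsulfatase B (Arsb) must first be activated by a formylglycine-generating enzyme, and remove sulfate from dermatan and chondroitin sulfate. The other 6 genes encode glycosidases, each of which releases 1 kind of end sugar. Fuca1 releases fucose, Hexa (the alpha subunit of beta-hexosaminidase) releases N-acetylhexosamine, Gusb releases glucuronic acid, Man2b1 releases mannose, Glb1 releases galactose, and Gaa releases glucose from glycogen. Macrophages and osteoclasts, both of which arise from the monocyte lineage, are rich in such enzymes. Transcription factors of the MiT/TFE family (Mitf, Tfeb, Tfe3, Tfec) can raise many lysosomal genes together through an E-box whose core is CACGTG.

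In the GRCm38 build, to which the authors' mm10 alignment corresponds, GENCODE vM21 places Fuca1 (ENSMUSG00000028673) on chromosome 4 from 135920735 to 135940311 and Arsb (ENSMUSG00000042082) on chromosome 13 from 93771630 to 93943016, both on the plus strand. Hexa (ENSMUSG00000025232) lies on chromosome 9 from 59539540 to 59565109, and Glb1 (ENSMUSG00000045594) on the same chromosome from 114401076 to 114474898, which is 8.17 Mb beyond Tlr9 itself. Gusb (ENSMUSG00000025534) lies on chromosome 5 from 129989011 to 130003049, Man2b1 (ENSMUSG00000005142) on chromosome 8 from 85083270 to 85098282, and Gaa (ENSMUSG00000025579) on chromosome 11 from 119267887 to 119285454. Tmppe overlaps Glb1 on the same strand, which could affect the UMI count of Glb1. Gm26527 overlaps Arsb and Tmem202 overlaps Hexa on the other strand.

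All 7 genes had a promoter window in RefSeq (GRCm38.p6, 250 bases before to 50 bases after the gene start). The windows of Fuca1 and Arsb are shown because these genes set the question, and those of Glb1 and Gaa because they are the 2 windows among the 7 that hold CACGTG, which reads the same on both strands and is written in capitals. The sequences run 5′ to 3′ along the plus strand of chr4:135920476-135920775, chr13:93771429-93771728, chr9:114400828-114401127 and chr11:119267713-119268012 in that order.
Fuca1: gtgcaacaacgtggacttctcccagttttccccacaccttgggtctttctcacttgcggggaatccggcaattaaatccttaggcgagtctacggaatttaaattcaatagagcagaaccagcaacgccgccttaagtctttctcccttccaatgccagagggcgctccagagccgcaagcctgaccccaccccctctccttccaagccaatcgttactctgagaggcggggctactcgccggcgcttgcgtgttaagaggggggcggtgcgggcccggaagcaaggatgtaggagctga
Arsb: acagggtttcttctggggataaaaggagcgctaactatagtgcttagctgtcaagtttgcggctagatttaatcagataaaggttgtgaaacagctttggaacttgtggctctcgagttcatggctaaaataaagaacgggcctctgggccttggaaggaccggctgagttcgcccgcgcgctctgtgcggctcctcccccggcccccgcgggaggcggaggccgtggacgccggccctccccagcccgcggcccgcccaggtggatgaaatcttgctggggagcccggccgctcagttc
Glb1: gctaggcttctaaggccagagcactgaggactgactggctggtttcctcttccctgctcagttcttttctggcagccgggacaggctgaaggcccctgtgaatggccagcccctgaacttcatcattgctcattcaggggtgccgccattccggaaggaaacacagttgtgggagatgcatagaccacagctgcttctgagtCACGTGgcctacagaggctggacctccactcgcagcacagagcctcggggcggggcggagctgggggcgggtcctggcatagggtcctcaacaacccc
Gaa: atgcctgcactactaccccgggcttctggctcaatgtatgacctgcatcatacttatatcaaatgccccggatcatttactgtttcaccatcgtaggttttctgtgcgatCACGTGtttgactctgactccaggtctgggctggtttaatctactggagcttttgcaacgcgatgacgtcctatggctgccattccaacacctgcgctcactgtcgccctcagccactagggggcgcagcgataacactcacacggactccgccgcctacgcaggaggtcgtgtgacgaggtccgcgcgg
The motif starts 48 bases before the gene start in Glb1 and 140 bases before it in Gaa. It was found in 2349 of 32851 promoter windows of the same table, or 7.15%. The presence or absence of these letters in a window says nothing of whether a factor binds there.

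After filtering, the libraries held 10781, 8918, 10573 and 8895 cells with 50204578, 63958243, 31210188 and 41384657 UMIs. The TLR9-/- libraries were therefore deeper, with a median of 2545 and 3618 UMIs per cell against 1759 and 2287. Over all cells, 41, 48, 120 and 97 UMIs fell on Tlr9 itself. Between 112 and 185 cell barcodes were shared by any 2 libraries, which was 1.26% to 1.75% of the smaller one. Cells were clustered without any lysosomal gene of the lists below. Ly6c2, F13a1, Ccr2, Ms4a6c, Csf1r and Fn1 of monocytes, and S100a8, S100a9, Ngp, Camp, Ltf and Retnlg of neutrophils, were left out of clustering too. Clusters were then named from markers, which could include these genes, and this gave 17 classes. Values are UMIs of a gene per 1000000 UMIs of its class in a library (CPM).

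Fuca1 and Arsb were detected across the marrow, but not with the same order of classes. The mean Fuca1 level over the 4 libraries was highest in monocytes (116 CPM, range 64.3 to 189) and conventional dendritic cells (116 CPM, 59.0 to 178), and lowest in immature neutrophils (30.9 CPM, 22.8 to 44.5). Neighbours in this order overlapped in their range at both ends. These means pool the genotypes, and in WT libraries the mean was 66.0 CPM in monocytes, 67.5 CPM in conventional dendritic cells, 64.2 CPM in B cells and 63.4 CPM in macrophages, down to 26.0 CPM in immature neutrophils and 24.7 CPM in erythroid cells. Arsb varied far more, from 236 CPM (147 to 394) in NK cells and 206 CPM (51.7 to 322) in conventional dendritic cells to 7.73 CPM (6.07 to 9.26) in B-cell precursors and 6.28 CPM (4.36 to 7.57) in B cells. Its highest value in B cells lay below its lowest value in monocytes, whereas Fuca1 in B cells, at 64.1, 94.0, 65.3 and 63.2 CPM, reached the level of WT monocytes.

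**Figure D1:**
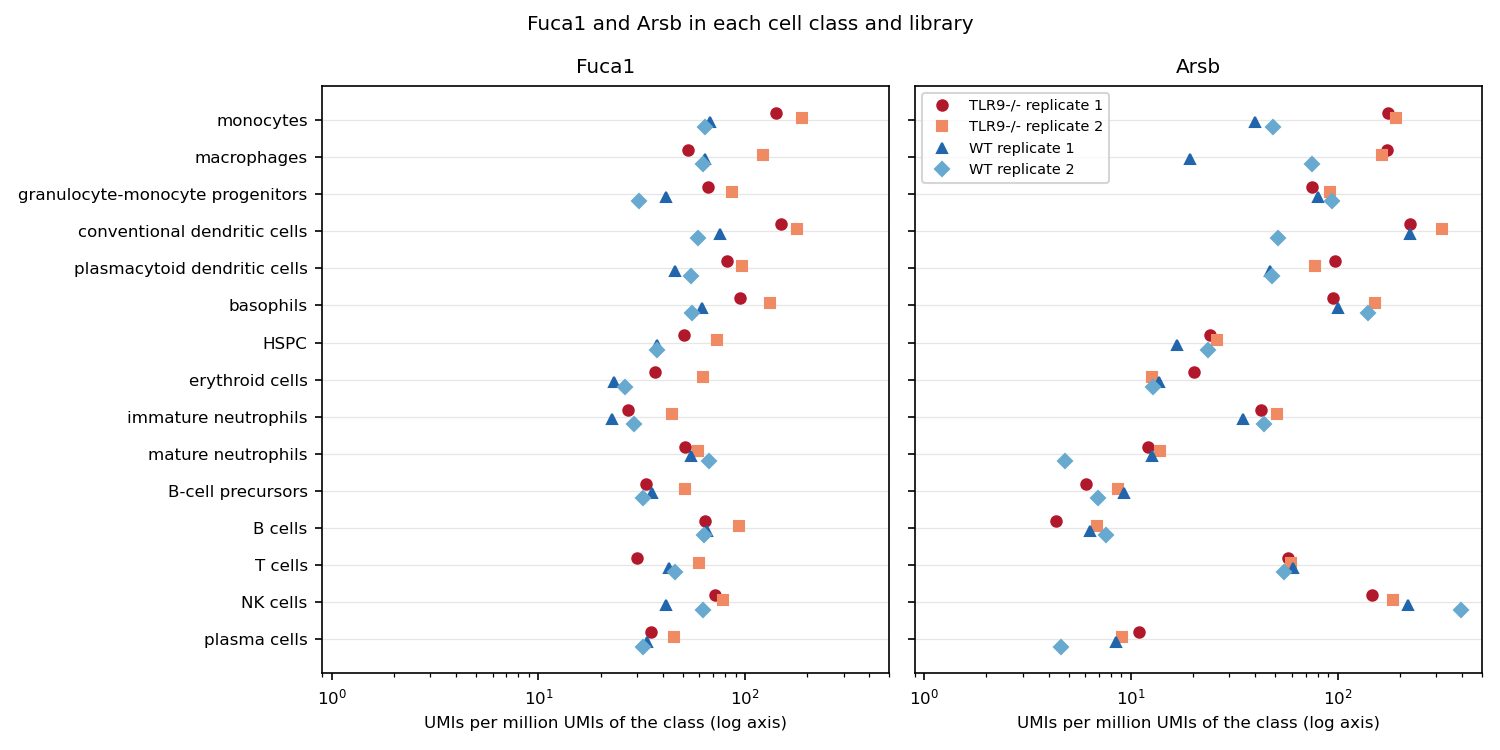
Fuca1 (left) and Arsb (right) in CPM of the class, on a log axis, in 15 cell classes, with 1 point per library (red and orange for TLR9-/-, blue for WT). TLR9-/- points lie to the right of both WT points for both genes in monocytes, plasmacytoid dendritic cells, HSPC (hematopoietic stem and progenitor cells) and plasma cells, for Fuca1 alone in several other classes, for Arsb alone in macrophages, and to their left for Arsb in NK cells. Plasma cells held only 16, 15, 8 and 7 Fuca1 UMIs and 5, 3, 2 and 1 Arsb UMIs, and neither gene passed the filter on low counts there.

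The other hydrolases had orders of their own. Man2b1 was highest in basophils, with a mean of 331 CPM and a range (267 to 366) that lay above all other classes, followed by conventional dendritic cells at 172 CPM, and lowest in erythroid cells at 19.0 CPM. Glb1 was likewise highest in basophils (52.5 CPM, 28.6 to 67.9), but here the range overlapped that of conventional dendritic cells (27.9 CPM, 11.4 to 53.5). Hexa was highest in conventional dendritic cells (243 CPM, 133 to 380), monocytes (207 CPM, 189 to 240) and macrophages (198 CPM, 70.7 to 305), and its range in granulocyte-monocyte progenitors (142 to 167) lay above that of plasmacytoid dendritic cells, the class next to it. Gusb was highest in granulocyte-monocyte progenitors (99.5 CPM, 92.1 to 112), and lowest in mature neutrophils (14.7 CPM, 12.7 to 17.5). Gaa and Glb1 had 1 and 4 UMIs in all mature neutrophils together, and Man2b1 and Hexa were detected there at a mean of 131 and 73.0 CPM.

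In monocytes, the comparison by which the genes were chosen, Fuca1 stood at 142 and 189 CPM in TLR9-/- libraries and at 67.7 and 64.3 CPM in WT libraries, a fold of 2.52. Arsb stood at 176 and 193 CPM against 39.7 and 48.9 CPM, a fold of 4.20. The libraries of the 2 genotypes did not overlap for either gene. The share of cells with a transcript, which comes from the same UMIs, is given as a description too. After each cell was thinned to 1000 UMIs, which left out 30 to 50 shallower monocytes per library, 15.0% and 18.5% of TLR9-/- monocytes had an Arsb UMI (exact 95% binomial intervals 13.2 to 17.0 and 16.4 to 20.8), against 3.95% and 3.37% of WT monocytes (2.66 to 5.63 and 2.07 to 5.15). Before thinning these shares were 57.3%, 58.9%, 14.9% and 19.6%, at median depths of 4694, 4932, 3407.5 and 4080 UMIs. B cells, which make little Arsb, gave 0.694%, 0.697%, 0.639% and 0.627% after thinning, and 0.597%, 1.21%, 0.800% and 1.12% before it, at median depths of 1107, 1646, 1000.5 and 1348 UMIs (108 to 935 shallower cells left out). For Fuca1 the thinned shares were 13.3% and 15.8% against 6.95% and 7.41% of monocytes, and 51.1% and 60.0% against 23.7% and 25.9% before thinning. These intervals cover counting error only.

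The Arsb difference was not uniform over the clusters of these classes, whose order in development was not tested. Granulocyte-monocyte progenitors fell into 2 clusters. In the cluster led by Elane and Ms4a3, genes of granule-forming progenitors, Arsb stood at 102 and 105 CPM in TLR9-/- libraries and at 121 and 120 CPM in WT libraries, so that TLR9-/- was below WT. In the cluster led by Mpo, Cd34 and Igfbp4 it stood at 59.2 and 77.7 CPM against 47.6 and 45.4 CPM. In the larger monocyte clusters the gap was wide, with 179 and 211 CPM against 47.3 and 64.4 CPM among cells led by F13a1 and Klf4, and 167 and 168 CPM against 30.2 and 22.8 CPM among cells led by Apoe and Ifitm3. Another cluster, of 214 monocytes, had 174 and 112 CPM against 22.8 and 18.9 CPM. In a finer clustering (Leiden resolution 2) a monocyte cluster of 236 cells had Vpreb1 and Igll1, markers of B-cell precursors, among its leading genes. Doublets were not called, and whether these 2 clusters share cells was not tested. WT Arsb was lower in the monocyte cluster led by Apoe and Ifitm3 than in either progenitor cluster, in both libraries, whereas TLR9-/- Arsb was higher there than in either. With both progenitor clusters summed, Arsb did not separate the genotypes, at 75.5 and 91.7 CPM against 80.6 and 93.9 CPM.

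Fuca1 differed in every one of these clusters. It stood at 43.8 and 72.1 CPM against 30.3 and 29.5 CPM in the Elane cluster, and at 79.6 and 102 CPM against 50.4 and 33.0 CPM in the Cd34 cluster. It stood at 141 and 195 CPM against 61.7 and 62.5 CPM, and at 156 and 180 CPM against 89.5 and 70.7 CPM, in the larger monocyte clusters. All 4 clusters, and the small one (98.9 and 176 CPM against 45.6 and 56.6 CPM), had both TLR9-/- libraries above both WT libraries for this gene. In all progenitors together the fold was 2.06. Macrophages, with 32 to 59 cells per library, held 4, 21, 10 and 5 Fuca1 UMIs, too few to order the genotypes (53.1, 123, 64.3 and 62.6 CPM), while their 13, 28, 3 and 6 Arsb UMIs gave 173 and 163 CPM against 19.3 and 75.1 CPM.

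**Figure D2:**
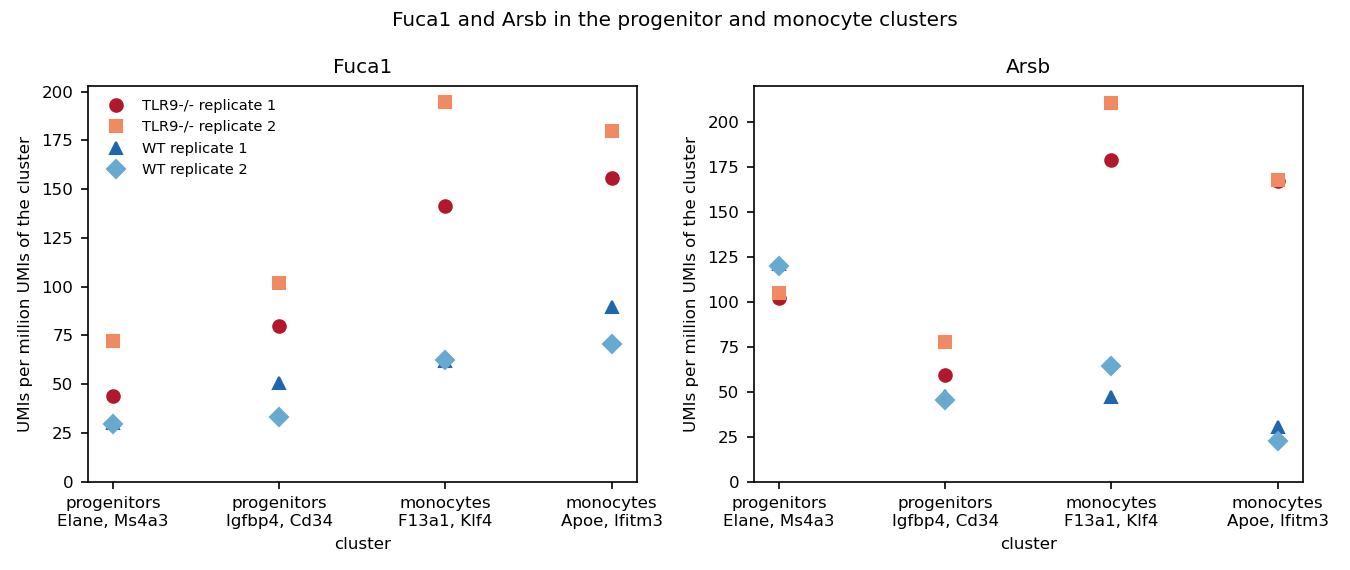
Fuca1 (left) and Arsb (right) in CPM of the cluster, from 0, in the 2 progenitor clusters and the 2 larger monocyte clusters, with 1 point per library. Fuca1 is higher in TLR9-/- in all 4 clusters, and Arsb is lower in TLR9-/- in the cluster led by Elane and higher in the others.

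The other hydrolases did not show a gap of this size in monocytes. Gusb stood at 98.3 and 103 CPM against 84.9 and 80.4 CPM (fold 1.23), Glb1 at 14.8 and 19.8 CPM against 13.1 and 14.5 CPM (fold 1.26), and Gaa at 9.82 and 11.4 CPM against 7.58 and 9.28 CPM (fold 1.27), each with both TLR9-/- libraries above both WT libraries. Hexa overlapped, at 199 and 240 CPM against 189 and 200.1 CPM (fold 1.14), as did Man2b1, at 117 and 169 CPM against 156 and 180 CPM (fold 0.86). In all, 5 of 7 members had both TLR9-/- libraries above both WT libraries in monocytes, where 17.5% of all 10271 genes tested did so and 20.3% did the reverse. In progenitors it was 3 of 7 (Fuca1, Hexa and Gusb) beside 24.5% of genes, and in macrophages 1 of the 4 members that passed the filter on low counts (Arsb) beside 16.8%. Since this contrast chose the genes, nothing is read from these counts.

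Outside the monocyte lineage, UMIs were summed per library in each of 14 classes and compared with edgeR's quasi-likelihood test, with Benjamini-Hochberg adjustment over all genes of the class. A gene was called at an adjusted p under 0.05. Members passed the filter on low counts in 13 of these classes, which gave 74 tests. The fit did not pair libraries by experiment. Of the 74, 0 were called by edgeR and 0 by DESeq2, and between 0 and 4 were called in the alternative fits of the closing section. The 4 calls came from the fit that paired libraries by replicate number. An unadjusted p under 0.05 was found for 12 of them, beside 6.49% of all gene tests. Over all genes of these classes 231 of 91168 tests were called, or 0.253%. Both TLR9-/- libraries lay above both WT libraries in 19 of the 74 member tests and below them in 4, beside 19% and 17.3% of all gene tests. A gene could pass the filter through a single genotype, which favours that direction. This held for Hexa in NK cells, through TLR9-/-, and for Gaa in conventional dendritic cells, through WT. Both are in these counts.

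Fuca1 was the member with the most classes in which both TLR9-/- libraries lay above both WT libraries, and with the most at an unadjusted p under 0.05. Of the 11 classes in which it could be tested, its log2 fold change was above 0 in 9. Its unadjusted p by edgeR was under 0.05 in 6, beside 6.49% of all gene tests. Both TLR9-/- libraries lay above both WT libraries in 6, beside 19%. All of these classes come from the same libraries. Conventional dendritic cells had the largest difference, from 76.0 and 59.0 CPM in WT to 150 and 178 CPM in TLR9-/- (log2 fold change 1.25, standard error 0.26, adjusted p = 0.326). Plasmacytoid dendritic cells, which are known for strong TLR9 expression, went from 45.7 and 54.8 CPM to 82.1 and 97.1 CPM (0.83, standard error 0.19, adjusted p = 0.193). Basophils went from 61.7 and 55.3 CPM to 94.4 and 131 CPM (0.89, standard error 0.27, adjusted p = 0.397).

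Hematopoietic stem and progenitor cells (HSPC) had Fuca1 at 50.9 and 73.0 CPM against 37.4 and 37.4 CPM (log2 fold change 0.70, standard error 0.24, adjusted p = 0.640). Erythroid cells had 36.8 and 62.8 CPM against 23.2 and 26.3 CPM (0.91, standard error 0.27, adjusted p = 0.920). The gap was found in each of the 3 erythroid clusters with over 100 Fuca1 UMIs, namely the one led by Car1, with 44.5 and 72.4 CPM against 35.0 and 29.2 CPM, the one led by Hba-a2, with 52.4 and 72.3 CPM against 30.8 and 36.0 CPM, and the one led by Mgst3, with 24.2 and 47.6 CPM against 19.2 and 20.2 CPM. The other 2 erythroid clusters held 2 and 6 Fuca1 UMIs in all. NK cells had 71.9 and 78.3 CPM against 41.3 and 62.7 CPM, from 43, 19, 10 and 7 UMIs.

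In B cells, B-cell precursors, T cells and mature neutrophils the Fuca1 libraries overlapped. B cells had 64.1 and 94.0 CPM against 65.3 and 63.2 CPM (log2 fold change 0.32, 95% interval −0.16 to 0.80). B-cell precursors had 33.1 and 51.2 CPM against 35.4 and 32.2 CPM (0.27, −0.15 to 0.70). T cells had 30.1 and 59.8 CPM against 42.7 and 45.7 CPM (−0.01, −0.76 to 0.74), and mature neutrophils had 51.2 and 59.3 CPM against 55.0 and 67.2 CPM (−0.09, −0.75 to 0.57). TLR9-/- replicate 2 was the highest library in the first 3 of these classes, and TLR9-/- replicate 1 lay below the higher WT library in all 4. Immature neutrophils had 27.3 and 44.5 CPM against 22.8 and 29.1 CPM (0.53, standard error 0.24, adjusted p = 0.607). The intervals of B cells and T cells contain the value of HSPC, and those of B-cell precursors and mature neutrophils end at 0.70 and 0.57. They assume a normal error and are narrower than the test of the same fit implies, so they exclude no value. Whether the Fuca1 change differed between classes was not tested.

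**Figure D3:**
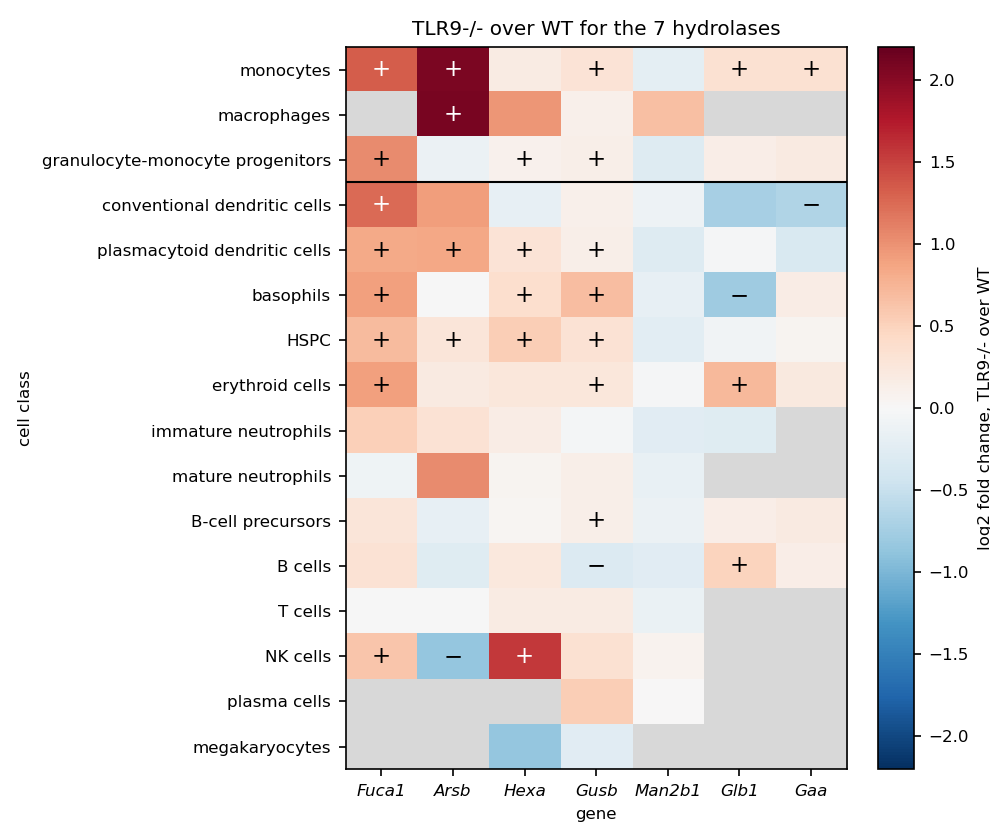
Log2 fold change of TLR9-/- over WT (edgeR) for the 7 hydrolases in 16 classes, in red where TLR9-/- was higher and in blue where it was lower, grey where the gene did not pass the filter on low counts. A plus or minus sign marks both TLR9-/- libraries above or below both WT libraries, and the line separates the classes that chose the genes from the others. The column of Fuca1 holds 6 plus signs below the line and that of Arsb holds 2 plus signs and 1 minus sign.

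Outside the monocyte lineage Arsb was tested in 11 classes, with a median log2 fold change of 0.20, and its log2 fold change was above 0 in 6. Plasmacytoid dendritic cells had 97.0 and 77.7 CPM against 47.0 and 48.4 CPM (log2 fold change 0.86, standard error 0.20, adjusted p = 0.203). These cells formed 3 clusters, and both TLR9-/- libraries lay above both WT libraries in the smaller ones. In the largest, of 2050 cells, the Arsb libraries overlapped (43.4 and 33.5 CPM against 43.3 and 44.1 CPM). In the cluster of 416 cells led by AC140186.1, Cox6a2, Irf8 and Runx2 it stood at 198 and 161 CPM against 90.9 and 63.3 CPM. The leading genes of that cluster also included Cd209a, a marker of conventional dendritic cells. They held 4 plasmacytoid and 4 conventional dendritic markers, against 10 plasmacytoid markers in the largest cluster and 11 plasmacytoid and 5 conventional ones in the smallest. That cluster held 138 and 126 of the 736 and 676 plasmacytoid dendritic cells in TLR9-/- libraries, and 84 and 68 of the 847 and 418 in WT libraries. The smallest cluster, with 3 to 11 Arsb UMIs per library, had 51.4 and 40.7 CPM against 19.3 and 25.8 CPM. For Fuca1 both TLR9-/- libraries lay above both WT libraries in all 3 clusters, at 62.7 and 86.8 CPM against 47.9 and 52.2 CPM in the largest cluster and 116 and 117 CPM against 41.8 and 63.3 CPM in that of 416 cells.

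Basophils, with Arsb at 95.3 and 151 CPM against 101 and 141 CPM, had a log2 fold change of −0.01 (95% interval −0.55 to 0.54). T cells had 57.9 and 59.8 CPM against 60.9 and 54.9 CPM (−0.01, −0.52 to 0.49). B cells and B-cell precursors, where few UMIs were found (7 to 23 and 28 to 62 per library), had −0.27 and −0.19. NK cells had the opposite direction, with 147 and 185 CPM in TLR9-/- and 219 and 394 CPM in WT (−0.85, standard error 0.35, adjusted p = 0.9996), from 44 to 88 UMIs per library. HSPC had 24.2 and 26.1 CPM against 16.8 and 23.7 CPM (0.26, standard error 0.29, adjusted p = 0.867). The libraries overlapped in mature neutrophils, which had the highest value of 1.04, from 9, 27, 3 and 5 UMIs. They also overlapped in immature neutrophils (0.31) and erythroid cells (0.20).

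In conventional dendritic cells Arsb stood at 225 and 322 CPM in TLR9-/- and at 225 and 51.7 CPM in WT (log2 fold change 0.93, standard error 0.48, adjusted p = 0.995). The WT libraries differed from each other more than the genotypes did, and the high WT value came from few cells. A total of 8 cells of this class, 5 in TLR9-/- replicate 2 and 3 in WT replicate 1, held at least 10 UMIs each of Acp5 and Ctsk, which encode the acid phosphatase and the collagen-degrading protease of osteoclasts, and each also held Ocstamp, an osteoclast fusion gene. The 3 such cells of WT replicate 1 held 60 of its 80 Arsb UMIs, 86 of its 135 Hexa UMIs and 16 of its 19 Glb1 UMIs, but 8 of its 27 Fuca1 UMIs. The 5 such cells of TLR9-/- replicate 2 held 37 of 212 Arsb UMIs and 0 of 117 Fuca1 UMIs. Without these 8 cells, a step chosen after the values were seen, Arsb stood at 225 and 291 CPM against 63.5 and 51.7 CPM (2.13, adjusted p = 0.00495) and Fuca1 at 150 and 194 CPM against 60.4 and 59.0 CPM (1.50, adjusted p = 0.0494).

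**Figure D4:**
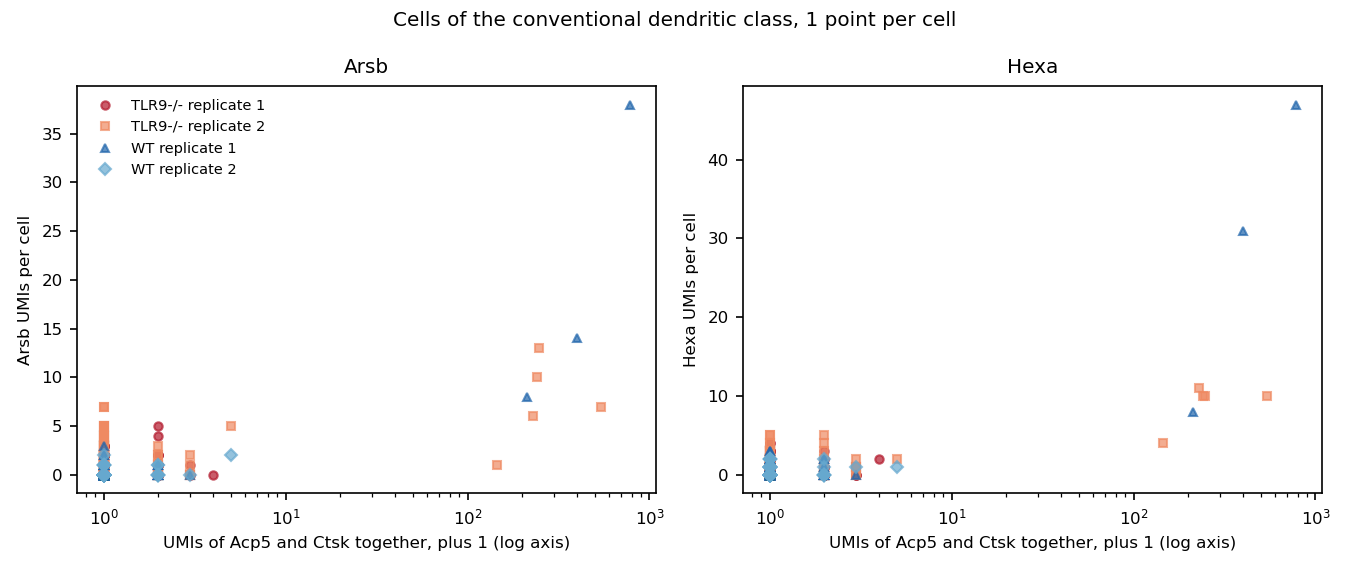
Arsb (left) and Hexa (right) UMIs per cell against the summed UMIs of Acp5 and Ctsk plus 1, on a log axis, for every cell of the conventional dendritic class, coloured by library. The 8 cells at the far right, 5 of TLR9-/- replicate 2 and 3 of WT replicate 1, stand apart from all others in Acp5 and Ctsk, and the 3 WT cells hold 60 of the 80 Arsb UMIs of their library.

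This class and several others also held monocyte transcripts, of genes that had been left out of clustering. F13a1 and Fn1, which are typical of monocytes, gave a UMI in 41.8%, 48.8%, 28.2% and 40.3% of conventional dendritic cells, but in 7.47%, 8.43%, 4.37% and 6.70% of plasmacytoid dendritic cells, 21.8%, 20.6%, 9.70% and 11.4% of HSPC, 5.99%, 9.36%, 4.79% and 6.42% of basophils and 6.33%, 8.09%, 3.78% and 5.16% of erythroid cells. In T cells it was 3.26%, 6.19%, 0.88% and 1.60%, and in NK cells 3.08%, 9.68%, 1.52% and 1.79% (7, 6, 2 and 1 cells). B cells overlapped, at 0.77%, 1.29%, 0.64% and 1.63%. Without the cells that held F13a1 or Fn1, the log2 fold change of Fuca1 was 0.92 in conventional dendritic cells, 0.60 in plasmacytoid dendritic cells, 0.84 in basophils, 0.85 in erythroid cells and 0.53 in HSPC. That of Arsb was 0.57 in conventional and 0.31 in plasmacytoid dendritic cells, and it turned to −0.24 in HSPC and −0.30 in erythroid cells, while that of Hexa in HSPC was 0.21. Leaving out such cells was a step chosen after the values were seen. Under the assumption that every F13a1 and Fn1 UMI in a class came from free monocyte RNA of the same library, such RNA would carry at most 9.05% of the Fuca1 UMIs in plasmacytoid dendritic cells, 7.25% in basophils, 16.5% in erythroid cells and 18.7% in HSPC, in the library where that share was largest. For Arsb it would carry up to 11.5% in plasmacytoid dendritic cells and 48.8% in HSPC. The use of F13a1 and Fn1 alone for these shares was not fixed beforehand. A longer list fixed for this purpose (Ly6c2, F13a1, Ccr2, Ms4a6c, Csf1r and Fn1), of which several genes are also made by dendritic cells and lymphocytes, summed to 22.7% to 31.3% of its monocyte level in plasmacytoid dendritic cells, with 0 of its 6 genes at 0 in any library, and to 0.38% to 1.10% in B cells, where 1 of the 6 was at 0 in 3 libraries. Under the same assumption this longer list gives far higher shares, of up to 54.3% of the Fuca1 UMIs and 69.0% of the Arsb UMIs in plasmacytoid dendritic cells, 16.0% and 19.7% in basophils, 22.8% and 58.3% in erythroid cells, 22.0% and 57.4% in HSPC and 49.2% and 42.7% in conventional dendritic cells. The part of monocyte RNA in the differences outside the monocyte lineage was not tested further.

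Class by class, the members that passed the filter were read beside all genes. In plasmacytoid dendritic cells 4 of 7 members (Fuca1, Arsb, Hexa and Gusb) had both TLR9-/- libraries above both WT libraries beside 20.6% of genes, and 0 were called beside 0.391%. In HSPC the same 4 members did so beside 20% of genes, with 0 called beside 0.196%. In basophils Fuca1, Hexa and Gusb were above beside 22.3% and Glb1 was below beside 16.6%, with 0 called beside 0.197%. In erythroid cells Fuca1, Gusb and Glb1 were above beside 22.4%, with 0 called beside 0.076%. In conventional dendritic cells Fuca1 was above beside 17.4% and Gaa below beside 15.3%, with 0 called beside 0.0184%. Gaa passed the filter there only through the WT libraries.

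In NK cells, with 5 members tested, Fuca1 and Hexa were above beside 16.5% and Arsb was below beside 17.5%, with 0 called beside 0.0912%. Hexa passed the filter there only through the TLR9-/- libraries. In B cells Glb1 was above beside 16.9% and Gusb below beside 15.7%, with 0 called beside 0.225%. In B-cell precursors Gusb alone was above, beside 22.7%, with 0 called beside 0.598%. In T cells 0 of 5 members were above beside 20.1% (0 called beside 0.0866%). In immature neutrophils 0 of 6 were above beside 11.5% (0 called beside 0.557%), and in mature neutrophils 0 of 5 beside 10.9% (0 called beside 0.193%). Plasma cells and megakaryocytes had 2 members tested each, and mesenchymal cells had 0.

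Among the 5 other hydrolases, both TLR9-/- libraries lay above both WT libraries in 5 of 13 classes for Gusb and in 4 of 12 for Hexa. They did so in 2 of 8 for Glb1, in 0 of 12 for Man2b1 and in 0 of 7 for Gaa, beside 19% of all gene tests. They lay below both WT libraries in 1 class each for Gusb (B cells), Glb1 (basophils) and Gaa (conventional dendritic cells). For Hexa and Man2b1 they did so in 0, beside 17.3%. In HSPC Hexa stood at 88.9 and 95.1 CPM against 62.0 and 62.0 CPM (log2 fold change 0.55, standard error 0.19, adjusted p = 0.640). In plasmacytoid dendritic cells it stood at 121 and 117 CPM against 93.2 and 99.0 CPM. In NK cells, where Hexa passed the filter only through the TLR9-/- libraries, the log2 fold change of 1.56 rested on 33, 11, 3 and 3 UMIs. In B-cell precursors, T cells and mature neutrophils Hexa overlapped, for instance at 71.4 and 73.6 CPM against 72.0 and 74.9 CPM in mature neutrophils.

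Gusb and Glb1 had opposite directions in basophils. Gusb stood at 92.7 and 103 CPM against 61.7 and 55.3 CPM (log2 fold change 0.69, standard error 0.25, adjusted p = 0.566), and Glb1 at 28.6 and 50.1 CPM against 67.9 and 63.6 CPM (−0.79, standard error 0.32, adjusted p = 0.618). In erythroid cells Glb1 stood at 5.25 and 9.24 CPM against 3.29 and 4.98 CPM. Man2b1 overlapped between genotypes in all 12 classes in which it was tested, with a log2 fold change from −0.28 to 0.07 and above 0 in 2 of them. In basophils, where it is most abundant, it stood at 267 and 366 CPM against 329 and 362 CPM. Gaa was tested in 7 classes, with a log2 fold change from −0.67 in conventional dendritic cells (5, 13, 8 and 6 UMIs) to 0.22 in erythroid cells. In conventional dendritic cells it passed the filter only through the WT libraries.

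Summed over all cells, Fuca1 stood at 70.1 and 89.9 CPM in TLR9-/- and at 39.9 and 37.6 CPM in WT, and Arsb at 73.9 and 77.5 CPM against 33.2 and 36.1 CPM. These totals also follow the makeup of the libraries. Cells of the monocyte lineage held 42.2% and 44.1% of all UMIs in TLR9-/- libraries and 21.9% and 23.1% in WT libraries, and they held 59.1% and 57.0% against 30.2% and 26.0% of the Fuca1 UMIs. For Man2b1, whose level within classes overlapped, the shares were 52.7% and 54.7% against 38.9% and 36.8%, and its level over all cells was 68.1 and 88.5 CPM against 66.8 and 76.1 CPM. In the monocyte lineage summed as a whole, Man2b1 did not overlap. Both TLR9-/- libraries (85.0 and 110 CPM) lay below both WT libraries (119 and 121 CPM), as for 21.8% of genes. There Fuca1, Arsb, Hexa and Gusb lay above, as did 21.7% of genes.

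To place the members in their pathway, 71 other genes of the lysosome were grouped by role: other glycosidases, other sulfatases with the enzymes that activate them, hydrolase partners and activators, mannose 6-phosphate sorting, lipases, phosphatases and peptidases other than cathepsins, membrane proteins and the proton pump, and MiT/TFE factors. In monocytes 69 of them passed the filter. Both TLR9-/- libraries lay above both WT libraries for 8 and below them for 12, beside the 17.5% and 20.3% of all genes given above, and their median log2 fold change was 0.02 beside −0.01 over all genes. None of the 7 groups had a median beyond −0.08 to 0.07. The 4 MiT/TFE genes each overlapped between genotypes.

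**Figure D5:**
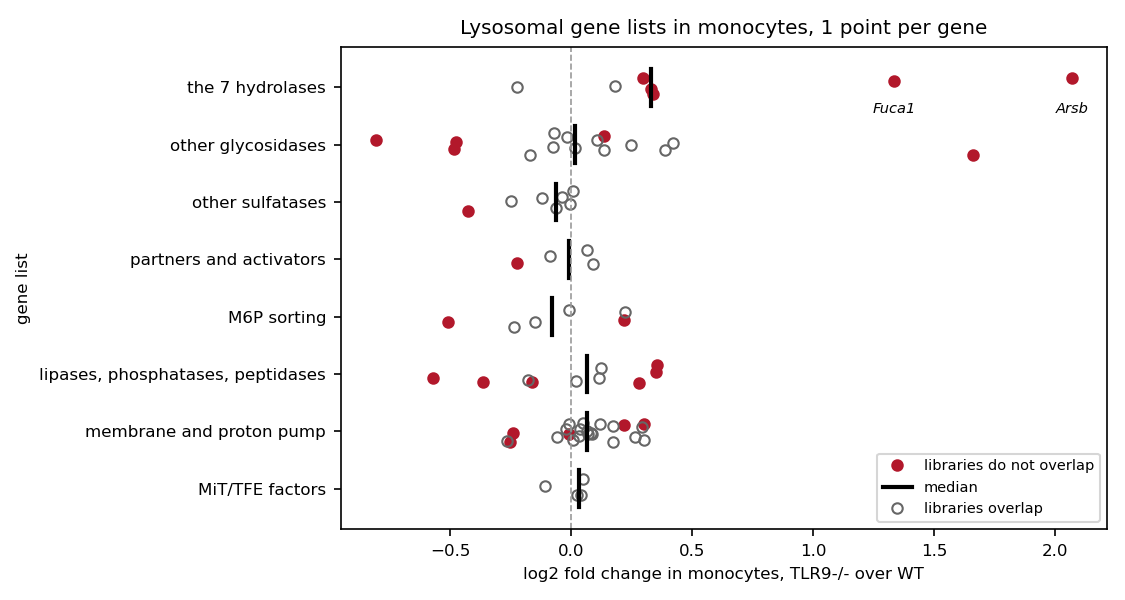
Log2 fold change in monocytes, TLR9-/- over WT, for the 7 hydrolases and for 7 groups of other lysosomal genes, with 1 point per gene, filled red where the libraries of the 2 genotypes did not overlap, and a black bar at the median. Arsb (2.07) and Fuca1 (1.33) lie apart from nearly all other genes, and the medians of the other groups lie between −0.08 and 0.07. These 2 genes were chosen for their difference in this same contrast, so nothing is read from their distance.

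In the monocyte lineage as a whole, 13 of the 71 lay above, beside 21.7% of genes, and 14 below, beside 21.8%. Those with the widest gaps without overlap included Hyal2, Lgmn, Idua and Sumf2. Hyal2, a hyaluronidase, stood at 4.95 and 4.96 CPM against 1.32 and 1.78 CPM (105, 140, 9 and 17 UMIs), mostly in progenitors, where it had 6.65 and 6.12 CPM against 1.85 and 2.40 CPM. Sumf2, a paralogue of the sulfatase-activating enzyme, stood at 15.0 and 13.8 CPM against 10.8 and 9.73 CPM, but in monocytes alone it overlapped. Lgmn, the asparaginyl endopeptidase legumain, stood at 8.49 and 9.43 CPM against 22.0 and 12.6 CPM, and Idua, the iduronidase of dermatan and heparan sulfate, at 3.82 and 3.83 CPM against 5.72 and 6.70 CPM. Idua and Arsb both act on dermatan sulfate chains. In the lineage summed as a whole, both TLR9-/- libraries lay below both WT libraries for Idua and above them for Arsb. In progenitors alone Arsb overlapped, and whether the same cells differed in both genes was not tested.

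Outside the monocyte lineage 0 of 633 tests of the 71 genes were called. Of these tests 144 (22.7%) had both TLR9-/- libraries above both WT libraries and 81 (12.8%) had them below, beside 19% and 17.3% of all gene tests, with a median log2 fold change of 0.08. In erythroid cells 22 of 70 genes were above and 4 below, beside 22.4% and 11.2% of all genes. In T cells it was 19 of 46 and 3, beside 20.1% and 15.2%, and in conventional dendritic cells 4 of 47 and 6, beside 17.4% and 15.3%. Idua had both TLR9-/- libraries below both WT libraries in the 5 classes where it passed the filter on low counts. Its log2 fold changes ran from −1.48 to −0.88, for instance at 2.53 and 1.24 CPM against 5.37 and 5.88 CPM in B-cell precursors (adjusted p = 0.271). In most of these classes the TLR9-/- libraries alone would not have passed the filter, which favours this direction. It had also been named for its gap in the same libraries, so nothing is read from the 5 classes. Lgmn was above in 3 of 8 classes and below in 1, and Sumf2 was above in 3 of 6. Hyal2 was above in 2 of 3 classes, namely in HSPC, at 11.3 and 13.9 CPM against 2.58 and 6.38 CPM (log2 fold change 1.36, adjusted p = 0.656), and in B-cell precursors, at 4.38 and 6.82 CPM against 3.43 and 2.74 CPM.

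Over the 17 classes, with the mean of the 4 libraries in each, the genes whose log2 level was most like that of Fuca1 were Cstb (Pearson r = 0.88), Acaa1a (0.84) and Asah1 (0.83), the last being lysosomal acid ceramidase, among 13713 genes. For Arsb they were Fam105a, Sh2d1b1 and Ppm1h (0.86, 0.85 and 0.85), and for Hexa they were Snx10, Anxa5 and Idh1 (0.91, 0.90 and 0.90). Gusb had Dhdh, Sec61b and Mgat2, Glb1 had Pdia6, Pdia3 and Mgat2, Man2b1 had Tet2, Tmem156 and Csf2rb, and Gaa had Tspan31, Snd1 and Vkorc1, with r from 0.85 to 0.93. None of the 7 members was among the closest genes of another. Fuca1 and Arsb had r = 0.53 with each other, and Fuca1 and Man2b1 had r = 0.80. All classes come from the same 4 libraries and differ in depth, so these values describe the data and carry no test.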

How the data were processed

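BMNCs of 2 TLR9-/- and 2 WT mice were sequenced on the 10x Chromium 5′ platform by the authors, who aligned and counted the reads with Cell Ranger (version 3.0.1 in the file headers, STAR and the mm10 build in the submitters' processing notes) and used Seurat 2.3.4 downstream. The deposited values are raw counts of UMIs per gene and cell, before the authors' aggregation. Cells with under 200 or over 10000 genes or over 10% mitochondrial UMIs were left out, following the methods, whose mitochondrial limit was read as a fraction. The upper gene limit removed 0 cells. Doublets were not called. All 4 libraries were clustered together (scanpy 1.11.5, 2000 variable genes without the lysosomal lists and the monocyte and neutrophil genes named above, 30 components, Leiden resolution 1). Clusters were named from marker lists. Clusters with markers of several types were left unnamed and out of all classes. UMIs were summed per library and class, filtered with filterByExpr and tested with edgeR 4.0.16 (TMM scaling, genotype only, two-sided, Benjamini-Hochberg adjustment over all genes of the class). The procedure was also run on simulated counts with the same dispersion for every gene, and no result here rests on that run. The smallest two-sided p of an exact permutation of 2 against 2 libraries is 0.33, so none was run. DESeq2 1.42.0 and the other alternatives of the closing section were run with it. The log2 fold changes of all 7 members are plotted for every class where they passed, and the text names part of them. From the other lists, genes called outside the monocyte lineage (there were 0) and the 5 widest gaps without overlap within it were named (1 of the latter is not reported here), with the 3 genes most like each member. Members and lists were chosen with earlier results of these data known, and leaving out cells with Acp5 and Ctsk or with F13a1 or Fn1 was added after the data were seen. Intervals of log2 fold changes assume a normal error, which makes them narrower than the edgeR test of the same fit implies. Precision depends on the spread between mice and on the UMIs of the class, which are fewest in mesenchymal cells, macrophages and megakaryocytes.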

Additional observations from a re-analysis of the deposited data

Results flagged for a closer look

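A total of 3 hydrolases lay above WT in both TLR9-/- libraries in some classes and below WT in both in another, with at least 10 UMIs in every library. Of all gene tests, without that limit on UMIs, 19% lay above and 17.3% lay below. How many of all genes did both was not counted, so nothing is read from the number 3. Whether the change differed between the classes was not tested. For Arsb, the arylsulfatase of dermatan sulfate, the log2 fold change was 0.86 in plasmacytoid dendritic cells and 0.26 in HSPC, and −0.85 in NK cells, where the gene had its highest mean level. For Gusb, beta-glucuronidase, it was 0.69 in basophils, 0.31 in HSPC, 0.26 in erythroid cells, 0.12 in plasmacytoid dendritic cells and 0.12 in B-cell precursors, and −0.30 in B cells. For Glb1, beta-galactosidase, it was 0.72 in erythroid cells and 0.48 in B cells, and −0.79 in basophils. By edgeR's test 0 of these 12 values were called after adjustment. Before adjustment 4 had a p under 0.05, namely Arsb in plasmacytoid dendritic cells and NK cells and Gusb and Glb1 in basophils. Without the cells that held F13a1 or Fn1, the log2 fold change of Arsb was 0.31 in plasmacytoid dendritic cells and −0.24 in HSPC. This step was chosen after the values were seen. In the largest cluster of plasmacytoid dendritic cells the Arsb libraries overlapped.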

How the results depend on the processing

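Several alternatives moved a value past the threshold of an adjusted p of 0.05, and the cause was not tested. Against 0 calls among the members outside the monocyte lineage, edgeR gave 3 without the filter on low counts, 2 with a mitochondrial limit of 5%, 1 without the 5% of cells with the most UMIs, 2 without the cells with Acp5 and Ctsk, and 0 to 2 without 1 library (2 without WT replicate 1, and 2 without WT replicate 2). Over all genes, against 231 calls, it gave 1445 without the filter and 700 to 933 without 1 library, where the lone library of a genotype is assumed to vary like the others. DESeq2 gave 321. Fuca1 in conventional dendritic cells passed without the filter (log2 fold change 1.31), at 5% mitochondrial UMIs (1.42) and without the cells with Acp5 and Ctsk (1.50), and Arsb there passed at 5% (1.84), without the top 5% of cells (2.17), without the cells with Acp5 and Ctsk (2.13) and without WT replicate 1 (0.29 to 2.38 over the libraries left out). In plasmacytoid dendritic cells Fuca1 (0.86) and Arsb (0.88) passed without the filter, and also without WT replicate 2 (0.73 to 0.95 for Fuca1 and 0.70 to 1.03 for Arsb over the libraries left out), Arsb also without WT replicate 1.

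The mice were profiled in 2 experiments with 1 mouse of each genotype, so the libraries are paired by design, but the labels do not say that the replicate numbers shared by the genotypes mark the experiment. If they do, the fit with the block is the one that matches the design. Over 13677 genes the deviations of libraries with the same number had r = 0.37, and over 15 classes r ran from −0.20 to 0.54, above 0.1 in 11. With the replicate block, 4 member tests were called, all for values above 0 (Fuca1 0.82 and Arsb 0.86 in plasmacytoid dendritic cells, Fuca1 0.88 in erythroid cells and 0.87 in basophils), and 1256 over all genes.

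Directions turned for values of Fuca1 and Arsb that had been between −0.27 and 0.32. Fuca1 in T cells became 0.037 without the filter, 0.041 at Leiden resolution 2, 0.15 without the top 5% of cells and 0.13 after thinning to equal depth, and in mature neutrophils 0.030 without the filter. Arsb became 0.036 in T cells and 0.074 in basophils without the filter, 0.066 in B cells and 0.075 in basophils without the top 5% of cells, 0.0082 in B cells and 0.046 in T cells after thinning, and −0.24 in HSPC and −0.30 in erythroid cells without cells with F13a1 or Fn1. Without 1 library Fuca1 ran from −0.56 to 0.42 in T cells, −0.33 to 0.092 in mature neutrophils, −0.028 to 0.55 in B-cell precursors and −0.0079 to 0.57 in B cells, and Arsb from −0.42 to 0.059 in B-cell precursors, −0.10 to 0.11 in T cells, −0.20 to 0.55 in erythroid cells and −0.34 to 0.31 in basophils. Without WT replicate 2 Arsb in NK cells was −0.39, without TLR9-/- replicate 1 Glb1 in basophils was −0.42, without WT replicate 1 Fuca1 in NK cells was 0.29, and without TLR9-/- replicate 2 Fuca1 was 0.52 in erythroid cells, 0.44 in HSPC and 0.21 in immature neutrophils. In monocytes the Arsb log2 ratio ran from 1.94 to 2.23 and that of Fuca1 from 1.13 to 1.53. Few UMIs limit mesenchymal cells, megakaryocytes, plasma cells and macrophages, where most members were not tested.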
